A study of Danio rerio with 9 samples.

Results

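Glutathione peroxidases and selenoprotein P were followed as RNA in whole zebrafish larvae (Danio rerio) homozygous for mutant alleles of fam177a1a, alone or together with fam177a1b. The set holds 9 of the 28802 gene rows of the count table, gpx1a, gpx1b, gpx3, gpx4a, gpx4b, gpx7, gpx8, selenop and selenop2. They were chosen by family name, and the set was chosen on measured values of these libraries: gpx3 was picked because its level lay on opposite sides of wild type in the 2 mutants. Levels and differences of gpx3 are therefore given as a description with no test, and only the other 8 genes were tested.

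The double mutants were homozygous for stl700 in fam177a1a and for stl746 in fam177a1b, the single mutants were homozygous for stl700 alone, and the wild type carries the name of the AB line in the file headers. The double mutants thus share the stl700 allele with the single mutants. Each genotype had 3 libraries, each from 7 whole larvae pooled at 8 days post fertilization, sequenced in pairs of 150 bases after ribosomal RNA depletion. FAM177A1, the human counterpart, is a protein of the Golgi complex. Whether the libraries stem from separate clutches is not in the labels, so p-values measure only the spread between these libraries.

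Glutathione peroxidases reduce hydrogen peroxide or lipid hydroperoxides with electrons from glutathione. In mammals most of them carry selenocysteine in the active site, an amino acid placed at UGA codons by a dedicated translation machinery, while Gpx7 and Gpx8 use cysteine. Selenoprotein P is made mainly by the liver in mammals, and it carries selenium in plasma to other organs, where it is taken up by receptors such as Lrp8.

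Counts assigned to genes came to 17.0 to 19.3 M per library in double mutants, 17.2 to 18.3 M in single mutants and 18.3 to 24.7 M in wild type. Levels are CPM, counts scaled to each library's TMM-adjusted total, and 3 counts correspond to 0.121 to 0.178 CPM. The row fam177a1 averaged 0.603 ± 0.252 CPM in double mutants, 0.638 ± 0.186 CPM in single mutants and 25.1 ± 2.45 CPM in wild type (SD, n = 3 each). Whether this row holds counts of fam177a1a, of fam177a1b or of both is not stated, so it does not give the level of either gene alone. All 24 markers of the organs of a larva were detected in every library. Single-mutant replicate 1 stood apart from the other 2 single-mutant libraries: on the second principal component it lay at 1.98, against −34.1 and −38.0. Where leaving it out changes a call named here, the value without it is given.

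All 9 genes passed the filter on low counts, which kept 21694 rows. Of the 8 tested members, 3 fell and 0 rose in double mutants against wild type, with a median log2 fold change of −0.28. Over all tested genes, 18.0% were called lower and 14.2% higher in that comparison, and the median was −0.01. In single mutants against wild type, 4 of the 8 fell and 1 rose, with a median of −0.33, against 22.6% called lower and 19.5% higher over all genes, and an all-gene median of −0.01. A call is an adjusted p under 0.05 in edgeR's quasi-likelihood F test, with the Benjamini-Hochberg adjustment over all 21694 genes. In double mutants selenop2 was the 1 member higher at an unadjusted p under 0.05. It was not called in edgeR's test, while DESeq2 and limma-voom called it. Genes that fell in both mutants were gpx1b and selenop, gpx4a fell in double mutants, and gpx7 and gpx8 fell in single mutants. The 2 comparisons share the 3 wild-type libraries, so a like direction in both is not independent.

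**Figure D1:**
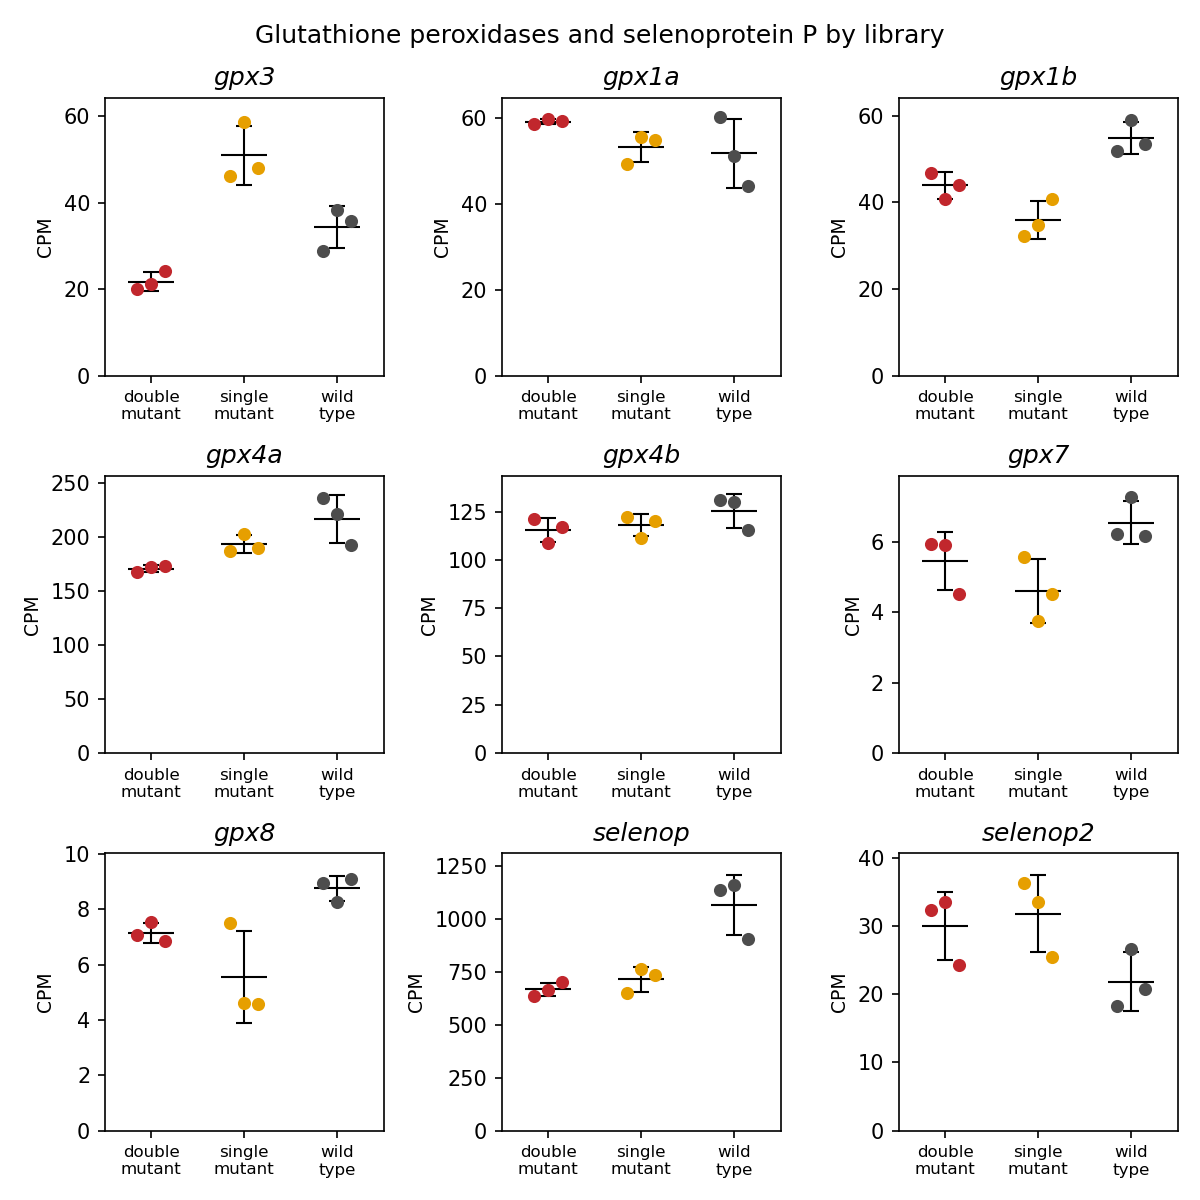
Level of each of the 9 genes in CPM (vertical axes, from 0) in double mutants, single mutants and wild type, with 1 point per library and a line and bar for the mean ± SD of 3 libraries. For gpx3 the double mutants lie at 19.9 to 24.2 CPM, below the wild type, and the single mutants at 46.1 to 58.6 CPM, above it. For selenop all 6 mutant libraries lie below the 3 wild-type libraries.

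In mammals Gpx3 is the plasma glutathione peroxidase, made largely in the kidney. gpx3 had 19.9, 21.1 and 24.2 CPM in double mutants, 46.1, 58.6 and 48.0 CPM in single mutants and 28.9, 38.3 and 35.7 CPM in wild type. Every double-mutant library was below, and every single-mutant library above, all wild-type libraries. Means were 21.7 ± 2.21 CPM in double mutants, 50.9 ± 6.74 CPM in single mutants and 34.3 ± 4.86 CPM in wild type (SD, n = 3 each). These rest on 336 to 463 counts per library in double mutants, 806 to 990 in single mutants and 716 to 778 in wild type.

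On the log2 scale gpx3 lay at −0.65 in double mutants against wild type, at 0.57 in single mutants against wild type and at −1.23 in double against single mutants. It is the one member whose fold changes against wild type have opposite signs, except that gpx1a, not called in either mutant, also had them with total counts as scaling (−0.01 in single mutants) and without wild-type replicate 3 (−0.06). Over the 19 alternatives, 9 of which leave out 1 library each, the differences ran between −0.74 and −0.57 in double mutants against wild type, between 0.50 and 0.66 in single mutants against wild type, and between −1.32 and −1.13 in double against single mutants. Relative to the wild-type mean, single-mutant replicate 1 had the smallest gain of its genotype, 0.43, against 0.77 and 0.49 for replicates 2 and 3.

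Of 19 kidney marker genes, 5 were called higher and 1 lower in double mutants, and 9 higher and 1 lower in single mutants. In double mutants 26.3% were thus higher and 5.26% lower, against 14.2% and 18.0% over all genes. In single mutants 47.4% were higher and 5.26% lower, against 19.5% and 22.6% over all genes. The summed level of the kidney markers was 600.2 to 628 CPM in double mutants, 613 to 689 CPM in single mutants and 526 to 585 CPM in wild type, with 0 of the markers at 0 in any library. The sum was thus above wild type in both mutants, while gpx3 was above it in single mutants and below it in double mutants. The part of kidney cells in the gpx3 values was not tested.

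selenop encodes the full-length selenoprotein P. It had 636, 664 and 699 CPM in double mutants, 647, 761 and 733 CPM in single mutants, and 1133, 1160 and 903 CPM in wild type. The 6 mutant libraries were all below the wild-type libraries. The log2 fold change was −0.68 in double mutants (95% interval −0.87 to −0.48, adjusted p = 8.86e-05) and −0.58 in single mutants (−0.77 to −0.38, adjusted p = 0.000202). Both calls held in all 19 alternatives, with adjusted p no higher than 0.00157 in double and 0.00345 in single mutants.

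Hepatocyte markers, by contrast, were called higher more often than lower among 23. In double mutants 11 were called higher and 3 lower, with a median log2 fold change of 0.26, and in single mutants 14 were called higher and 0 lower, with a median of 0.29. These were 47.8% higher and 13.0% lower in double mutants, against 14.2% and 18.0% over all genes. In single mutants they were 60.9% higher and 0% lower, against 19.5% and 22.6% over all genes. In single mutants 1 hepatocyte marker was lower at an unadjusted p under 0.05, and limma-voom called 1 lower and DESeq2 0. Their summed level was 13647 to 14175 CPM in double mutants, 13529 to 14386 CPM in single mutants and 10792 to 11770 CPM in wild type, and 0 of the markers were at 0 in any library. The part of hepatocytes in the selenop values was not tested. In bulk larvae, fewer cells of a type and less RNA per cell cannot be told apart. In the RefSeq annotation of another assembly (GRCz12tu), a long non-coding RNA locus overlaps selenop, and the sources used here do not say whether the counting kept strands apart.

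selenop2 encodes the second fish selenoprotein P, which lacks the selenocysteine-rich tail of the first. It had 32.3, 33.4 and 24.3 CPM in double mutants, 36.3, 33.5 and 25.5 CPM in single mutants and 18.2, 26.6 and 20.7 CPM in wild type. In each mutant 2 of the 3 libraries were above all wild-type libraries and the other overlapped them. selenop2 rose in single mutants (log2 fold change 0.54, 95% interval 0.15 to 0.93, adjusted p = 0.0293), and in double mutants it lay at 0.46 (0.07 to 0.85, adjusted p = 0.0681). The single-mutant call did not hold when single-mutant replicate 1 (adjusted p = 0.120) or 2 (0.0800) was left out, nor without wild-type replicate 1 (0.0785) or 3 (0.0942) or with total counts as scaling (0.0592). The double-mutant value passed without double-mutant replicate 3 (adjusted p = 0.0207), single-mutant replicate 3 (0.0258) or wild-type replicate 2 (0.0190).

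The ratio of selenop to selenop2 in CPM, which carries the lengths of both rows and is read only between genotypes, averaged 22.8 ± 5.19 in double mutants, 23.1 ± 5.49 in single mutants and 49.8 ± 10.7 in wild type (SD, n = 3 each). It was 19.6 to 28.7 in double mutants and 17.8 to 28.8 in single mutants, against 43.6 to 62.2 in wild type, with no overlap between mutants and wild type. With 3 libraries against 3, an exact permutation test cannot give a p below 0.1, so the ratio was not tested.

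**Figure D2:**
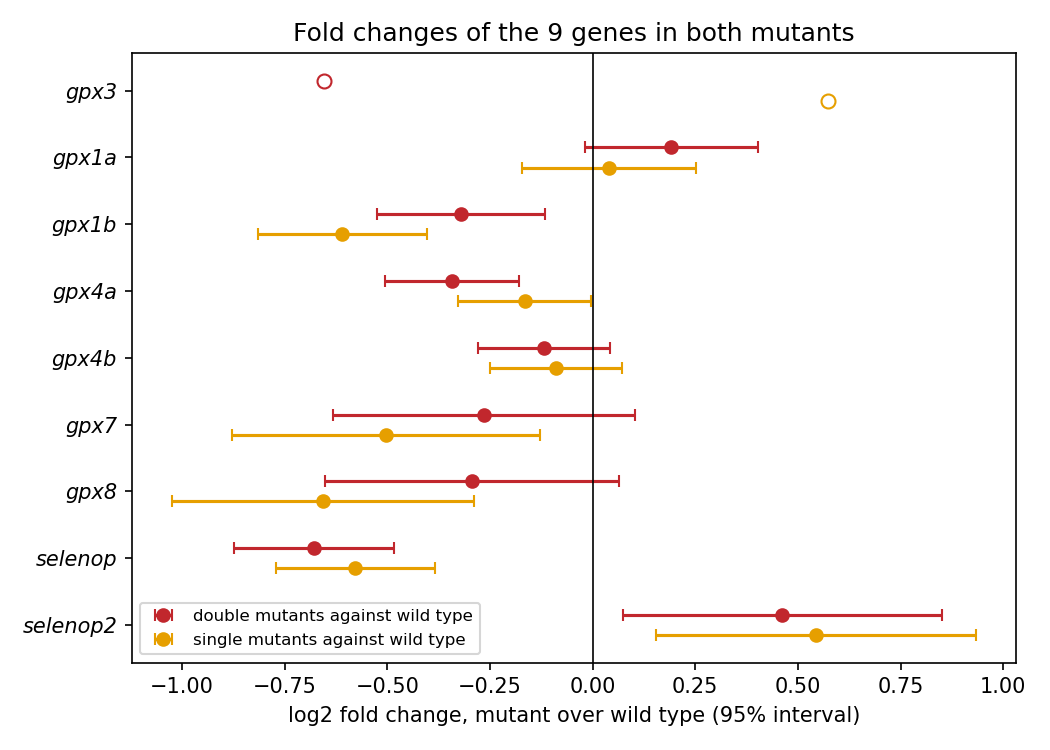
Log2 fold change of each gene against wild type (horizontal axis) in double mutants (red, upper point) and single mutants (orange, lower point), with the 95% interval from edgeR's fit. gpx3 is drawn as open points with no interval because it was chosen for these values, at −0.65 in double and 0.57 in single mutants. The intervals of selenop, gpx1b, gpx4a and selenop2 lie on 1 side of 0 in both mutants. Of these, gpx4a in single mutants and selenop2 in double mutants were not called.

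gpx1a and gpx1b are the zebrafish counterparts of mammalian Gpx1, the cytosolic enzyme that reduces hydrogen peroxide. gpx1b had 46.8, 40.8 and 44.1 CPM in double mutants, 32.2, 34.7 and 40.7 CPM in single mutants and 51.9, 59.1 and 53.4 CPM in wild type. All 6 mutant libraries were below the 3 wild-type libraries. The single mutants lay below the double mutants, but the nearest libraries, at 40.7 CPM in single and 40.8 CPM in double mutants, almost met. The log2 fold change was −0.32 in double mutants (95% interval −0.52 to −0.11, adjusted p = 0.0187) and −0.61 in single mutants (−0.82 to −0.40, adjusted p = 0.000155). The single-mutant call held in all 19 alternatives. The double-mutant call was lost without double-mutant replicate 2 (adjusted p = 0.126) or 3 (0.0792) and without wild-type replicate 2 (0.0889).

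gpx1a had 58.4, 59.7 and 59.1 CPM in double mutants, 49.2, 55.4 and 54.8 CPM in single mutants and 60.1, 51.0 and 44.0 CPM in wild type. The wild-type libraries spanned the mutants' values. The log2 difference was 0.19 in double mutants (95% interval −0.02 to 0.40, adjusted p = 0.155) and 0.04 in single mutants (−0.17 to 0.25, adjusted p = 0.781). Without wild-type replicate 1, the highest of its genotype, the double-mutant difference was 0.34 with an adjusted p of 0.0188. The ratio of gpx1a to gpx1b in CPM was 1.25 to 1.46 in double mutants and 1.35 to 1.60 in single mutants, against 0.824 to 1.16 in wild type, so the mutants lay above wild type with no overlap. The sources used here do not say whether reads shared by the 2 paralogues were split or dropped in counting, and the same holds for the gpx4 and selenop pairs.

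gpx4a and gpx4b correspond to mammalian Gpx4, which reduces lipid hydroperoxides within membranes and restrains ferroptosis, a form of cell death driven by lipid peroxidation. gpx4a had 167, 172 and 173 CPM in double mutants, 187, 202 and 189 CPM in single mutants and 236, 221 and 192 CPM in wild type. The double mutants were below all other libraries, and 1 single-mutant library overlapped the wild type. gpx4a fell in double mutants (log2 fold change −0.34, 95% interval −0.51 to −0.18, adjusted p = 0.00307), a call that held in all 19 alternatives. In single mutants it lay at −0.17 (−0.33 to −0.003, adjusted p = 0.0946), and it passed without wild-type replicate 3 (adjusted p = 0.0131) and with total counts as scaling (0.0253).

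gpx4b had 121, 109 and 117 CPM in double mutants, 122, 112 and 120 CPM in single mutants and 131, 130 and 115 CPM in wild type. The 3 genotypes overlapped. The log2 difference was −0.12 in double mutants (95% interval −0.28 to 0.04, adjusted p = 0.253) and −0.09 in single mutants (−0.25 to 0.07, adjusted p = 0.365), so a decrease of more than 0.28 in double mutants or 0.25 in single mutants on this scale lies outside the intervals.

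gpx7 and gpx8 encode the members of the endoplasmic reticulum, which in mammals use peroxide to help form disulfide bonds. gpx8 had 7.06, 7.56 and 6.85 CPM in double mutants, 7.50, 4.62 and 4.57 CPM in single mutants and 8.95, 8.26 and 9.09 CPM in wild type. All mutant libraries were below the wild type, and single-mutant replicate 1 lay among the double mutants. gpx8 fell in single mutants (log2 fold change −0.66, 95% interval −1.02 to −0.29, adjusted p = 0.00668) and lay at −0.29 in double mutants (−0.65 to 0.06, adjusted p = 0.200). The single-mutant call was lost without single-mutant replicate 2 (−0.50, adjusted p = 0.0514). Without replicate 1, the single-mutant difference was −0.93 with an adjusted p of 4.24e-05.

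gpx7 had 5.93, 5.90 and 4.50 CPM in double mutants, 5.55, 3.73 and 4.51 CPM in single mutants and 6.21, 7.25 and 6.15 CPM in wild type. Again the mutant libraries were all below the wild type, by margins that were small for the nearest ones. gpx7 fell in single mutants (log2 fold change −0.50, 95% interval −0.88 to −0.13, adjusted p = 0.0319) and lay at −0.26 in double mutants (−0.63 to 0.10, adjusted p = 0.264). The single-mutant call was lost in 7 of 19 alternatives, among them those without single-mutant replicate 2 (adjusted p = 0.186) or 3 (0.101) and without wild-type replicate 1 (0.0698) or 2 (0.110). The 2 genes are the least counted members, with 239 to 575 counts summed over a genotype's libraries.

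Between the mutants, 0 of the 8 tested members were called in edgeR's test, against 1.67% of all genes in either direction. At an unadjusted p under 0.05 there were 2, gpx1b and gpx4a, and DESeq2 and limma-voom called 0. gpx1b lay at 0.29 in double against single mutants (95% interval 0.08 to 0.50, adjusted p = 0.141) and gpx4a at −0.18 (−0.34 to −0.01, adjusted p = 0.239). gpx8 lay at 0.36 (−0.02 to 0.74, adjusted p = 0.297), and without single-mutant replicate 1 it was called, at 0.64 (adjusted p = 0.00693). For selenop the difference was −0.10 (−0.29 to 0.09, adjusted p = 0.606), which leaves room for a decrease of 0.29 in double mutants relative to single mutants.

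Levels per kilobase of the deposited row length allow the genes to be ranked against each other. In double mutants selenop averaged 249.9 ± 11.9 CPM per kilobase, in single mutants 268 ± 22.3 and in wild type 399.8 ± 53.2 (SD, n = 3 each), which put it at rank 168 of 21694 genes in wild type. Next came gpx4a and gpx4b, at 145 ± 14.9 and 142 ± 9.97 CPM per kilobase in wild type, whose ranges overlap. Then followed gpx1b at 63.3 ± 4.35, gpx1a at 36.5 ± 5.69 and selenop2 at 13.6 ± 2.68 CPM per kilobase in wild type, with no overlap between neighbours.

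At the low end gpx7 at 6.74 ± 0.638 and gpx3 at 6.61 ± 0.937 CPM per kilobase in wild type did not differ beyond their spread, and gpx8 was at 4.45 ± 0.225. The gpx3 row is 5189 bases long, against 866 to 2665 bases for the others, and the transcript models behind the row lengths are not stated. In double mutants gpx3 averaged 4.19 ± 0.426 CPM per kilobase and gpx7 5.62 ± 0.845. Their ranges, 3.84 to 4.67 for gpx3 and 4.64 to 6.12 for gpx7, overlapped, so these genes are not ordered there. In single mutants gpx3 averaged 9.82 ± 1.30, above gpx7 at 4.75 ± 0.942. The summed level of all 9 glutathione peroxidase rows, which here include gpx2 and gpx9 and leave out the selenop pair, was 356 ± 8.45 CPM per kilobase in double mutants, 364 ± 5.30 in single mutants and 409 ± 30.8 in wild type. gpx4a and gpx4b together held more than any other pair of these rows in every genotype, at 32.2% and 36.9% in double mutants, 35.6% and 36.8% in single mutants and 35.4% and 34.8% in wild type.

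**Figure D3:**
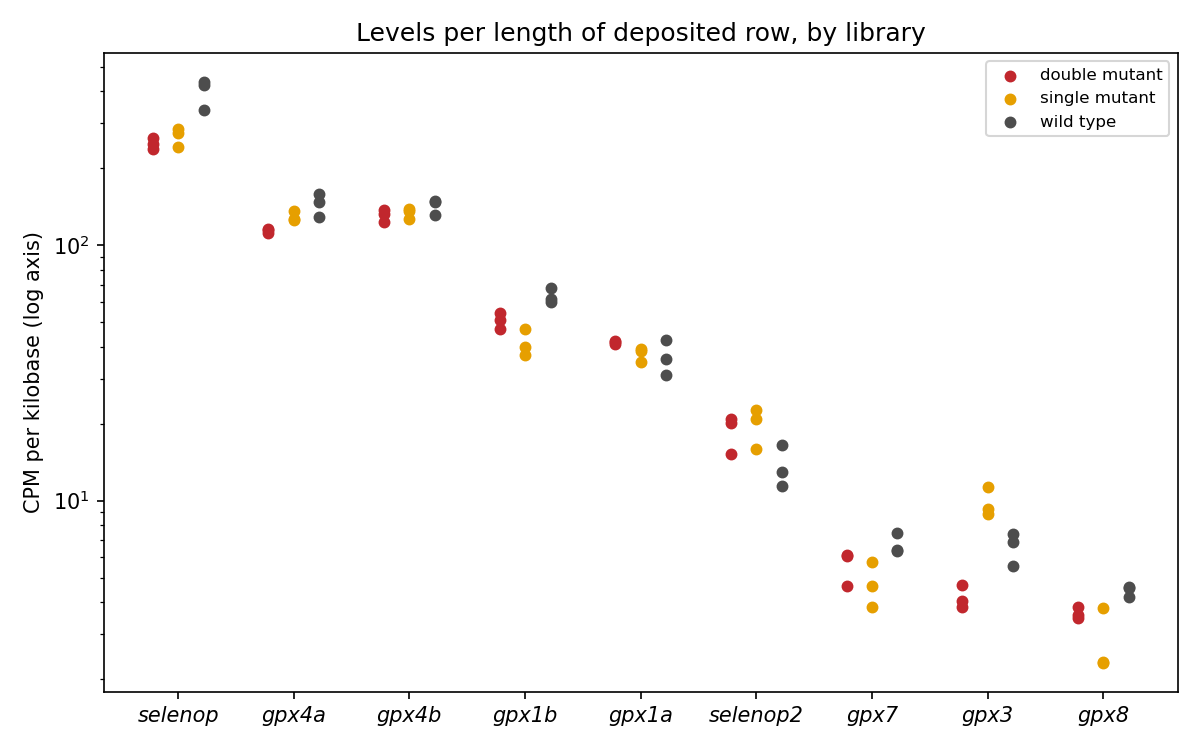
Level of each gene per kilobase of its deposited row (vertical log axis, CPM per kilobase), ordered by the wild-type mean, with 1 point per library for double mutants, single mutants and wild type. selenop is highest, at 249.9 CPM per kilobase in double mutants and 399.8 in wild type on average, and gpx3 stands near gpx7 and gpx8.

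The remaining rows of the family, gpx2 and gpx9, were not called in any comparison. gpx2 averaged 1.32 ± 0.209 CPM in double mutants, 1.37 ± 0.434 in single mutants and 1.05 ± 0.207 in wild type, and gpx9 averaged 7.80 ± 0.401 CPM in double mutants, 7.54 ± 0.125 in single mutants and 7.52 ± 1.45 in wild type.

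Of 26 other selenoproteins in the table, 13 fell and 2 rose in double mutants, with a median log2 fold change of −0.32, and 12 fell and 5 rose in single mutants, with a median of −0.31. Over all genes 18.0% fell and 14.2% rose in double mutants, and 22.6% fell and 19.5% rose in single mutants. In double mutants 50.0% of these selenoproteins fell and 7.69% rose, and in single mutants 46.2% fell, while the 19.2% that rose were near the share over all genes. Without wild-type replicate 1, the double-mutant calls numbered 9 in all. Over all genes, leaving out 1 library each gave 5230 to 8697 double-mutant calls, against 6990 with all libraries. txnrd3, a thioredoxin reductase, averaged 200.3 ± 6.37 CPM in double mutants, 174 ± 8.21 in single mutants and 295 ± 10.5 in wild type, a log2 fold change of −0.56 (adjusted p = 1.53e-05) in double and −0.76 (adjusted p = 7.13e-07) in single mutants. selenoi, an enzyme of phosphatidylethanolamine synthesis in mammals, fell by 0.68 in double and 0.75 in single mutants on the log2 scale, and selenoj fell by 0.41 in double and 0.68 in single mutants.

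The selenoproteins that rose in both mutants were selenoo1, a mitochondrial enzyme in mammals, and dio2, the deiodinase that activates thyroid hormone. selenoo1 averaged 55.6 ± 4.82 CPM in double mutants, 64.8 ± 11.2 in single mutants and 34.8 ± 1.12 in wild type, with log2 fold changes of 0.68 (adjusted p = 0.000342) in double and 0.90 (adjusted p = 2.10e-05) in single mutants. dio2 averaged 8.79 ± 1.54 CPM in double mutants, 7.22 ± 0.671 in single mutants and 3.98 ± 0.412 in wild type, with log2 fold changes of 1.14 (adjusted p = 0.000100) in double and 0.85 (adjusted p = 0.000784) in single mutants.

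The list of selenium machinery held 17 genes in the table. Beside genes that make and insert selenocysteine, recycle selenium or take it up, it held selenbp1, celf1, elavl1a and elavl1b. rpl30 and sars were in the list as well. The genes that fell in double mutants were eefsec, sephs1, sephs2, selenbp1, sars, elavl1a and elavl1b. celf1, elavl1b, rpl30 and sars are named to show what the list holds. In double mutants 7 fell and 2 rose, with a median of −0.23, and in single mutants 9 fell and 3 rose, with a median of −0.26. The share that fell was 41.2% in double and 52.9% in single mutants, against 18.0% and 22.6% over all genes. The share that rose was 11.8% in double and 17.6% in single mutants, near the 14.2% and 19.5% over all genes. eefsec, the elongation factor that delivers selenocysteine to the ribosome, had 11.3, 11.0 and 12.5 CPM in double mutants, 11.6, 9.65 and 7.99 CPM in single mutants and 20.8, 21.2 and 20.9 CPM in wild type. Every mutant library was below every wild-type library, at a log2 fold change of −0.85 (SE 0.12, adjusted p = 0.000114) in double and −1.10 (SE 0.13, adjusted p = 8.87e-06) in single mutants. The selenophosphate synthetase sephs2, its relative sephs1 and the SECIS-binding factor secisbp2 were named after their values were seen. sephs2, itself a selenoprotein and counted in both lists, fell by 0.37 in double and 0.54 in single mutants, while secisbp2 rose by 0.50 in double and 0.59 in single mutants. sephs1 fell by 0.63 in double mutants (adjusted p = 0.0281) and 1.03 in single mutants, and the double-mutant call was lost in 6 of 19 alternatives.

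Among carriers and receptors, lrp8, a receptor of selenoprotein P in mammals, rose. It had 20.1, 21.7 and 21.0 CPM in double mutants, 19.7, 22.8 and 23.6 CPM in single mutants and 14.1, 16.3 and 15.8 CPM in wild type, with no overlap between mutants and wild type. The log2 fold change was 0.44 (SE 0.10, adjusted p = 0.00399) in double and 0.52 (SE 0.10, adjusted p = 0.000908) in single mutants. lrp2a and lrp2b of the same list, not named by the rule, are given beside it. lrp2a rose in single mutants (0.35, adjusted p = 0.0310) and lay at 0.27 in double mutants (adjusted p = 0.0984). lrp2b was called in neither, at 0.31 in double (adjusted p = 0.452) and 0.41 in single mutants (adjusted p = 0.278). selenbp1, a selenium-binding protein, averaged 29.8 ± 1.61 CPM in double mutants, 30.9 ± 2.47 in single mutants and 53.7 ± 7.99 in wild type, and fell by 0.85 in double and 0.80 in single mutants. elavl1a, counterpart of an RNA-binding protein that binds selenoprotein mRNAs in mammals, fell by 0.57 in double and 0.59 in single mutants.

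**Figure D4:**
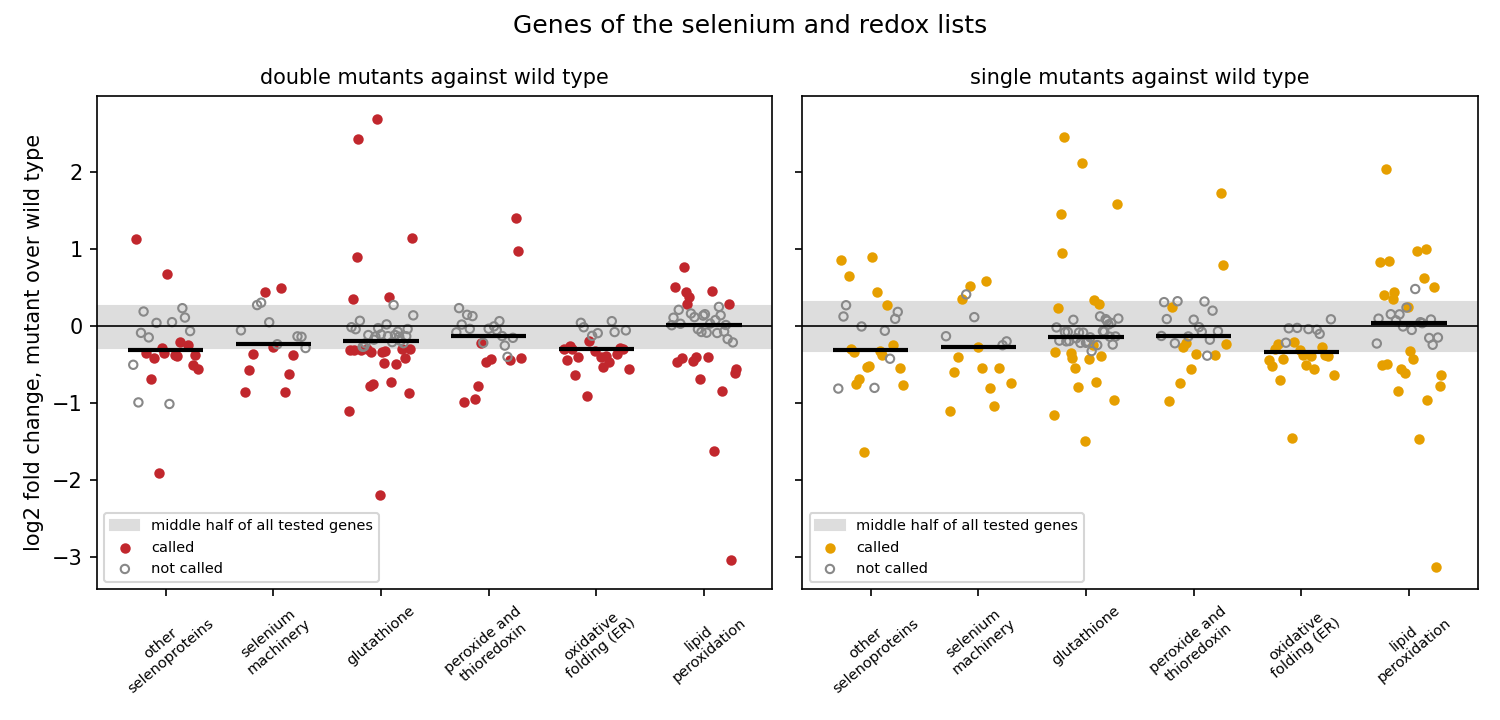
Log2 fold change against wild type (vertical axis) of each tested gene in 6 lists, in double mutants (left) and single mutants (right), with filled points for called genes, open points for others and a line for each list's median. The grey band holds the middle 50% of all tested genes. The list of oxidative folding in the endoplasmic reticulum has 17 called genes in each mutant, all below 0.

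Of 47 genes of glutathione synthesis, recycling and transfer, 18 fell and 6 rose in double mutants (median −0.19) and 12 fell and 8 rose in single mutants (median −0.14). In double mutants 38.3% fell and 12.8% rose, against 18.0% and 14.2% over all genes. In single mutants 25.5% fell and 17.0% rose, near the 22.6% and 19.5% over all genes. pgd, a pentose phosphate enzyme that makes the NADPH for glutathione recycling, averaged 61.6 ± 2.31 CPM in double mutants, 57.9 ± 1.64 in single mutants and 112 ± 4.06 in wild type, and fell by 0.87 in double and 0.96 in single mutants. ggt1b, a gamma-glutamyltransferase that breaks down extracellular glutathione, averaged 53.4 ± 2.95 CPM in double mutants, 55.3 ± 6.40 in single mutants and 28.6 ± 1.39 in wild type, and rose by 0.90 in double and 0.95 in single mutants. Its relative ggt1l2.1 rose by 2.43 in double and 2.46 in single mutants, with a wild-type mean of 0.804 CPM. The glutathione transferase gstk4 rose by 2.69 in double and 2.12 in single mutants, with a wild-type mean of 1.16 CPM.

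Of 25 catalase, peroxiredoxin, thioredoxin and superoxide dismutase genes and their partners, 8 fell and 2 rose in double mutants and 8 fell and 3 rose in single mutants, with a median of −0.13 in each. In both mutants 32.0% fell, against 18.0% in double and 22.6% in single mutants over all genes. The share that rose was 8.00% in double and 12.0% in single mutants, against 14.2% and 19.5% over all genes. The single-mutant total of 11 was 7 with the 6 compared libraries alone. Over all genes, the alternatives other than leaving out 1 library gave 7777 to 9125 single-mutant calls, against 9116 in the main fit. prdx4, the peroxiredoxin of the endoplasmic reticulum, fell by 0.47 in double and 0.56 in single mutants, and prdx6, which in mammals acts on lipid peroxides, fell by 0.43 in double and 0.37 in single mutants. The thioredoxin-binding genes txnipa and txnipb rose, txnipa by 1.41 in double and 1.73 in single mutants and txnipb by 0.98 in double and 0.79 in single mutants. msrb2, a mitochondrial methionine sulfoxide reductase, fell by 0.98 in double and 0.97 in single mutants. prdx1, a cytosolic peroxiredoxin, fell by 0.78 in double mutants. In single mutants it fell by 0.27 (adjusted p = 0.0343), a call lost in 12 of 19 alternatives, among them that without single-mutant replicate 1 (−0.16, adjusted p = 0.0982).

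Oxidative folding in the endoplasmic reticulum, the process in which Gpx7 and Gpx8 act in mammals, held 24 tested genes. In double mutants 17 fell and 0 rose (median −0.30), and in single mutants 17 fell and 0 rose (median −0.34). The share that fell was 70.8% in each, against 18.0% in double and 22.6% in single mutants over all genes. Over all genes 14.2% rose in double and 19.5% in single mutants. In edgeR's test 0 of the 24 were higher at an unadjusted p under 0.05 in either mutant, and DESeq2 and limma-voom called 0 of them higher. The double-mutant calls numbered 11 without double-mutant replicate 1, 9 without double-mutant replicate 2 and 10 without wild-type replicate 1. The single-mutant calls numbered 11 without single-mutant replicate 2 or wild-type replicate 1. Calls over all genes fell in double mutants from 6990 to 5230 without double-mutant replicate 1, the lowest total with 1 library left out. They were thus no fewer than 5230 in the settings with 9 and 10 list calls. In single mutants calls over all genes fell from 9116 to 7327 without single-mutant replicate 2. dnajc10, a reductase that removes wrong disulfides in mammals, averaged 25.8 ± 0.392 CPM in double mutants, 24.7 ± 3.06 in single mutants and 39.9 ± 3.41 in wild type, and fell by 0.63 in double and 0.69 in single mutants. The disulfide isomerases pdia3, pdia5 and pdia7 fell by 0.32, 0.40 and 0.39 in double mutants and by 0.30, 0.50 and 0.38 in single mutants. The chaperones calr and calr3a fell by 0.30 and 0.44 in double mutants and by 0.43 and 0.51 in single mutants.

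Of 38 lipid peroxidation and ferroptosis genes, 11 fell and 7 rose in double mutants and 12 fell and 11 rose in single mutants, with medians of 0.01 in double and 0.05 in single mutants. In double mutants 28.9% fell and 18.4% rose, against 18.0% and 14.2% over all genes. In single mutants 31.6% fell and 28.9% rose, against 22.6% and 19.5% over all genes. keap1b, counterpart of the sensor that holds back the oxidative stress factor Nrf2, averaged 12.2 ± 0.873 CPM in double mutants, 13.6 ± 1.52 in single mutants and 37.5 ± 3.23 in wild type, and fell by 1.62 in double and 1.46 in single mutants. The transferrin receptor tfr1b fell by 0.61 in double and 0.78 in single mutants, the acyl-CoA synthetase acsl3b by 0.46 in double and 0.51 in single mutants and the fatty acid elongase elovl5 by 0.68 in double and 0.61 in single mutants. steap3, a ferric reductase in mammals, averaged 0.361 ± 0.278 CPM in double mutants, 0.349 ± 0.162 in single mutants and 3.08 ± 0.280 in wild type. Its mutant values rest on few counts per library, 4, 3 and 13 in double mutants and 4, 9 and 5 in single mutants.

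Between the mutants, 5 of these list genes were called. They were 2 of 26 other selenoproteins (7.69%), 1 of 17 genes of the machinery list (5.88%), 1 of 25 peroxide enzymes (4%) and 1 of 38 lipid peroxidation genes (2.63%). In the glutathione and oxidative folding lists 0 were called. Over all genes 1.67% were called in either direction. trnau1apb, which binds the selenocysteine tRNA in mammals, averaged 45.7 ± 2.40 CPM in double mutants, 33.2 ± 5.91 in single mutants and 55.6 ± 2.63 in wild type. It lay at 0.46 in double against single mutants (adjusted p = 0.0432), fell by 0.74 in single mutants and lay at −0.28 in double mutants against wild type (adjusted p = 0.0518), which passed without single-mutant replicate 1 (adjusted p = 0.00488). prdx1 had 34.8, 32.8 and 35.3 CPM in double mutants, 40.9, 49.3 and 55.4 CPM in single mutants and 60.4, 56.2 and 59.5 CPM in wild type. It was lower in double than in single mutants by a log2 fold change of −0.50 (adjusted p = 0.0176). Leaving out single-mutant replicate 1 raised the calls of this comparison from 362 to 3860 over all genes. Among the list genes it raised them from 5 to 31. In that setting 6 further named genes were called in double against single mutants. These were sephs1 at 0.72 (adjusted p = 8.90e-05), tfr1b at 0.33 (0.00392), selenoo1 at −0.35 (0.00506), txnipb at 0.38 (0.0114), txnrd3 at 0.24 (0.0174) and eefsec at 0.40 (0.0343).

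Markers of other cells that a whole larva holds were as follows. Of 14 enterocyte markers, 4 rose and 6 fell in double mutants and 4 rose and 7 fell in single mutants, and of 12 tested erythrocyte markers 2 rose and 7 fell in double mutants and 1 rose and 8 fell in single mutants. Of 18 neutrophil and macrophage markers, 2 rose and 5 fell in double mutants and 4 rose and 4 fell in single mutants. Over all genes 14.2% rose and 18.0% fell in double mutants, and 19.5% rose and 22.6% fell in single mutants. In single mutants 22.2% of the neutrophil and macrophage markers rose and 22.2% fell, near the shares over all genes. Summed enterocyte markers lay at 6247 to 6323 CPM in double mutants and 5891 to 6370 CPM in single mutants, against 7325 to 7860 CPM in wild type. Summed neutrophil and macrophage markers lay at 2136 to 2276 CPM in double mutants and 2288 to 2666 CPM in single mutants, against 2051 to 2113 CPM in wild type. Summed erythrocyte markers, of which up to 4 of 16 were at 0 in a library, lay at 2893 to 3173 CPM in double mutants and 2548 to 3018 CPM in single mutants, against 2575 to 3622 CPM in wild type. Of the 24 organ markers, 2 rose and 7 fell in double mutants and 3 rose and 5 fell in single mutants. The part of these cells in the values of the 9 genes was not tested.

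The genes most like gpx3 and selenop were ranked by Pearson's r of log2 CPM over the 9 libraries, among 15066 genes with a mean of at least 5 CPM. The 9 points share their libraries and depth and fall into 3 genotypes, so r is a description. For gpx3 they were rnf25 (r = 0.962), a ubiquitin ligase, chchd3a (0.961), of the mitochondrial inner membrane, lin7b (0.947), a scaffold protein, cers2b (0.946), a ceramide synthase, and the row BX901920.1 (0.939). lin7b averaged 2.85 ± 0.431 CPM in double mutants, 15.1 ± 0.931 in single mutants and 8.36 ± 3.14 in wild type, and BX901920.1 averaged 2.14 ± 0.414 CPM in double mutants, 31.4 ± 4.42 in single mutants and 14.3 ± 0.917 in wild type. chchd3a had the same order within a narrow range, at 38.7 ± 0.439 CPM in double mutants, 43.6 ± 0.755 in single mutants and 41.6 ± 1.39 in wild type.

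For selenop the nearest were capgb (r = 0.986), an actin-capping protein, ywhaqb (0.978), a 14-3-3 protein, stoml3b (0.978), a stomatin-like membrane protein, pgam1a (0.977), a glycolytic enzyme, and ikbkb (0.977), a kinase of NF-kB signalling. stoml3b averaged 59.0 ± 4.13 CPM in double mutants, 65.3 ± 9.39 in single mutants and 102 ± 10.2 in wild type, and pgam1a averaged 82.8 ± 3.46 CPM in double mutants, 85.7 ± 2.42 in single mutants and 115 ± 5.30 in wild type. None of the 10 genes belongs to the lists of selenium and redox genes given above.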

How the data were processed

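RNA from 9 pools of whole larvae was sequenced, 3 for each genotype. The values are raw counts per gene as the authors deposited them. The submitters' processing notes name the build GRCz11 and the tools cutadapt, STAR, featureCounts and DESeq2, without versions. The annotation release, the strandedness of the counting and its handling of multi-mapping reads are not stated there. Totals were 17.0 to 24.7 M counts per library. The wild-type columns are headed AB and were matched to wild type by name and number.

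Low rows were removed by filterByExpr of edgeR with genotype as the grouping, and libraries were scaled with TMM factors. All 9 libraries entered 1 quasi-likelihood fit with robust estimation (edgeR 4.0.16, limma 3.58.1, R 4.3.3), with genotype as the only factor and 6 residual degrees of freedom. The common biological coefficient of variation was 11.4%. Intervals are 95% intervals from that fit. The script was tested on simulated data. Alternatives were other scalings and filters, DESeq2 1.42.0, limma-voom, the 6 compared libraries alone, a replicate block and leaving out each library.

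The members, the gene lists and the rules were chosen with earlier results of these data known. Named genes are the 9 members and fam177a1. From each selenium or redox list, up to 4 genes with the smallest adjusted p in each mutant against wild type were also named. The 5 genes most like each of gpx3 and selenop were named too, with log2 CPM computed at a prior count of 2. sephs1, sephs2, secisbp2, selenos and selenow2b were added to the named list genes after their values were seen, and they are counted with them. Symbols come from the count table. Pairs of libraries of a genotype differed by a chi-square of 3.25 to 20.4 per gene, more than sampling noise alone would give, so none was counted as 1 sample.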

Additional observations from a re-analysis of the deposited data

Results flagged for a closer look

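5 genes were singled out for a difference between the mutants. The choice was made among the members and the named genes only. In the lipid peroxidation list, 1 of 38 genes was also called, higher in double mutants. The rule of smallest adjusted p had named neither this gene nor selenow2b and selenos. selenow2b and selenos were added after their values were seen, while this gene was not, so it is not among the 5. gpx3 was taken because all its double-mutant libraries lay below, and all its single-mutant libraries above, the wild-type mean. Its log2 difference in double against single mutants was −1.23, and this was not tested, since gpx3 was chosen for it. For the others, edgeR's test of double against single mutants was passed. prdx1 lay at −0.50 (adjusted p = 0.0176), with all 3 double-mutant libraries below the single mutants, and the call was lost in 5 of 19 alternatives. trnau1apb lay at 0.46 (adjusted p = 0.0432), with all 3 double-mutant libraries above the single mutants, and the call was lost in 12. selenow2b and selenos, both selenoproteins, were named after their values were seen. selenow2b had 14.6, 11.5 and 13.5 CPM in double mutants, 21.1, 20.0 and 23.0 CPM in single mutants and 21.2, 19.2 and 15.8 CPM in wild type. It lay at −0.69 in double against single mutants (adjusted p = 0.0109), and the call was lost without double-mutant replicate 2 (adjusted p = 0.0793). selenos, a protein of the endoplasmic reticulum membrane in mammals, had 70.2, 64.3 and 70.3 CPM in double mutants, 75.9, 93.3 and 101 CPM in single mutants and 69.5, 66.5 and 61.5 CPM in wild type. It lay at −0.40 in double against single mutants (adjusted p = 0.0495), and the call was lost in 13 of 19 alternatives.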

How the results depend on the processing

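For the 8 tested members, 430 of 456 values under the alternatives kept their side of the threshold, 16 lost a call and 10 gained one. The sign changed in 5 of the 456, all among values not called, and 0 called values reversed. For 38 named list genes, 51 of 2156 lost a call, 11 gained one, and the sign changed in 33 with 0 of them called. Leaving out 1 library each, the calls among the members numbered 2 to 5 in single mutants against wild type, where 5 were called with all libraries. They were 2 without single-mutant replicate 2 and 3 without wild-type replicate 1. Over all genes, the calls in single mutants against wild type fell from 9116 to 7327 without single-mutant replicate 2. Between the mutants they numbered 0 to 1, with gpx8 called without single-mutant replicate 1.

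Among the list genes, 5 were called between the mutants. The stricter filter and limma-voom each gave 3, DESeq2 gave 11 and the 6 compared libraries alone gave 2. Leaving out 1 library each gave 1 to 31, with 31 without single-mutant replicate 1. Over all genes, the same comparison gave 362 calls, 883 with DESeq2, 184 with the 6 libraries alone, 108 without double-mutant replicate 2 and 3860 without single-mutant replicate 1. The cause was not tested.

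The deviations of libraries from their genotype means had r of −0.04 to 0.06 for the same replicate number and −0.06 to 0.07 for other numbers. Of 18 pairs of a library and another genotype, 11 matched best with their own number, where equal chance gives 6. These values do not settle whether the libraries were paired. The replicate block gave 3 list genes between the mutants, and with it selenop2 passed in double mutants against wild type (adjusted p = 0.0157), as it did with DESeq2 (0.0226) and limma-voom (0.0484). Among the scalings, total counts turned the sign of gpx1a in single mutants, which was not called. Of the 9 genes, gpx7 and gpx8 hold the fewest counts.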
